A study of Mus musculus with 4 samples.

Results

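The regions described here lie between genes and carried an ATAC-seq peak in both control libraries and in neither BPA library. They were selected on the presence of a peak in the deposited peak lists of 4 libraries. The peaks of chromosomes 1 to 19 were pooled, overlapping peaks were merged into 144198 regions, and a control-only region was kept when no curated RefSeq start site lay within 500 bp and its midpoint fell outside every curated transcript. This gave 3849 members, out of 60267 intergenic regions in all. Control-only regions made up 5.28% of all merged regions and 6.39% of the intergenic ones, whereas the reverse pattern, BPA-only regions that had a peak in each BPA library and none in the controls, made up 9.21% of the intergenic ones. These shares are set by the selection and are given as a description. The number of members was 2053 when every list was limited to a −log10 q-value of at least 5 and 2419 when the control peaks had to share 50% of both lengths. It was 13098 without control 1, 13154 without control 2 and 6950 without BPA 2. With 2 libraries in each group an exact permutation test cannot go below a p-value of 0.33, so no test between groups was run, and regions are not replicates of a treatment. All values set beside each other below are therefore descriptions of these 4 libraries.

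The libraries came from nuclei of visceral adipose tissue of 8-week-old CD-1 mice, an outbred stock in which individual animals differ genetically. The control libraries were from descendants of dams given sesame oil, and the BPA libraries from descendants of dams given bisphenol A at 50 mg/kg. Injections into the peritoneum were daily from embryonic day 7.5 until day 13.5. The study describes the sampled animals as later descendants that were not treated themselves. The generation of the BPA animals differs between the labels and the text of the study, and neither sex nor batch was labelled. In ATAC-seq a transposase cuts and tags DNA that is free of nucleosomes, and a peak marks a place where many tagged fragments pile up. Adipose tissue holds adipocytes beside vessels, immune cells, progenitors and mesothelium, and a site that opened less within cells and a site whose cells were fewer cannot be told apart in such bulk libraries.

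Open chromatin far from genes includes enhancers, where transcription factors bind and act on promoters at a distance, and insulator sites, where CTCF holds the ends of chromatin loops. An enhancer does not always act on the gene nearest to it, so the gene named with a region below gives its place and not its target. Among the factors that open chromatin in adipose tissue, nuclear factor I (NFI) and C/EBP proteins act during adipocyte formation, AP-1 acts at many enhancers, and the glucocorticoid receptor binds paired sites facing each other.

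The sequences of 9 members are shown as examples of some of the motifs counted later. None of the 9 holds the GATA site (AGATAAG) or the TEAD site (CATTCCA). Members whose sequence held no searched motif, such as those at D430036J16Rik and Sorcs1, are not shown. Each sequence is 121 bases of the mm10 plus strand, 60 bases either side of the summit in control 1. Capitals mark the letters of a searched motif on either strand. The motifs in capitals are the NFI site (TTGGCA), the steroid receptor pattern (ACANNNTGT), the AP-1 site (TGANTCA), the RUNX site (TGTGGTT), the MEF2 site (TAAAAATA), a short CTCF core (CNAGGNGGC) and a longer CTCF pattern, which reads CC, any 3 bases, then AGNNGGC and can overlap the short core. The first 5 are among the best-ranked members, and that at 4930440I19Rik stands in a locus with a raised background in both controls.
Cyp2b10 (chr7:25884441-25884561): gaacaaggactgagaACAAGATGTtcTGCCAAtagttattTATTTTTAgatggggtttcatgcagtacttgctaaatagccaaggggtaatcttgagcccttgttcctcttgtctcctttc
Emb (chr13:117316043-117316163): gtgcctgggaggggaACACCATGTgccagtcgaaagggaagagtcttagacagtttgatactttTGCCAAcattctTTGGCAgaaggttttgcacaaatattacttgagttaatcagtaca
Gm14062 (chr2:137652302-137652422): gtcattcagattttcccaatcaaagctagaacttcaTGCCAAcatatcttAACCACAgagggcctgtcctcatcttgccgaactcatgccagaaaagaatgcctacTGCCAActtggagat
Gask1b (chr3:80263225-80263345): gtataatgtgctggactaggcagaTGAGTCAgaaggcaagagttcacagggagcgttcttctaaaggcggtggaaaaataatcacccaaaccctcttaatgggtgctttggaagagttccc
4930440I19Rik (chr2:78026811-78026931): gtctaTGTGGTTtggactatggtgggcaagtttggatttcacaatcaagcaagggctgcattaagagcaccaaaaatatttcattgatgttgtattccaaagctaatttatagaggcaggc
The other four are the best-ranked members of genes that had the most members nearby. That of Isl1 holds 3 NFI sites within the 121 bases, and those of Gm2516, Trps1 and Got2 hold the longer CTCF pattern.
Isl1 (chr13:116002596-116002716): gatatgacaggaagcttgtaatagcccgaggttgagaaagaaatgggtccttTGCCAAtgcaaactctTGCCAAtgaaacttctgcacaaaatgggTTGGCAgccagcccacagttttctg
Gm2516 (chr8:50293633-50293753): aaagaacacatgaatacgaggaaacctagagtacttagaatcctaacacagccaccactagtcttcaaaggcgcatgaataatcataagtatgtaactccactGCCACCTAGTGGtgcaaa
Trps1 (chr15:50261600-50261720): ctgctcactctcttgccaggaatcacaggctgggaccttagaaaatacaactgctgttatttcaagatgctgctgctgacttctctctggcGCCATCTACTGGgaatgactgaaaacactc
Got2 (chr8:95915065-95915185): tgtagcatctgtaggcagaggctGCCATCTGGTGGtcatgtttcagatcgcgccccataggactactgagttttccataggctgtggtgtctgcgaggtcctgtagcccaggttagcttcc

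The members were weak to moderate peaks in both controls. The −log10 q-value, which grows with the certainty of a peak against its local background, had a median of 5.74 in control 1 and 6.05 in control 2. In intergenic regions with a peak in all 4 libraries these medians were 9.46 and 12.6. The fold of the pile-up over the local background had a median of 4.0 in control 1 and 4.18 in control 2, and the pile-up itself, recovered from the deposited fold and p-value, had a median of 19 fragments in each control. A total of 892 members (23.2%) were in the best 50% of both control lists by q-value, and 93 (2.42%) were in the best 25% of both. The 2 controls placed the same members in only loosely similar order, with a Spearman's rho of 0.297 across the 3849 members, beside 0.602 across the 12278 regions with a peak in all 4 libraries. Both lists share the sequence and the mappability of each region, and no p-value is given. The summits of the 2 controls lay a median of 66 bp apart in the members and 63 bp apart in the regions with a peak in all 4 libraries, and in 2416 members (62.8%) the peaks of both controls shared at least 50% of each other's length.

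**Figure D1:**
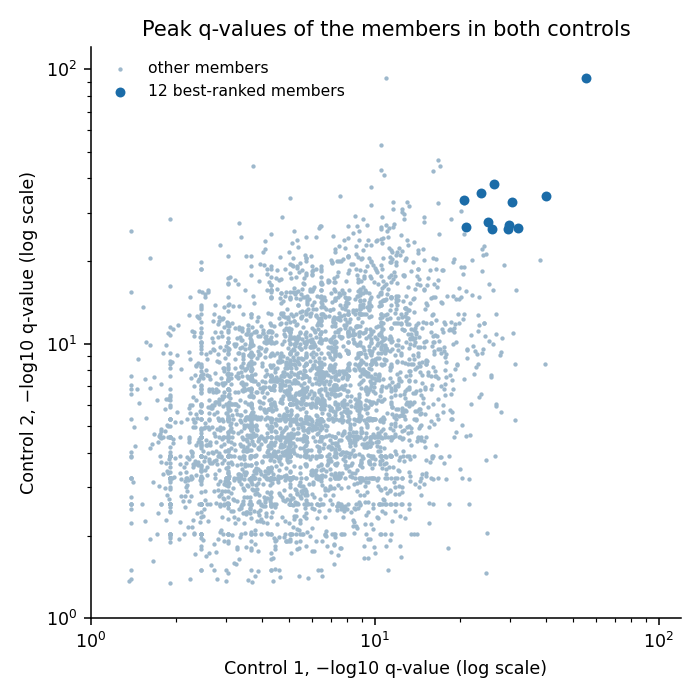
Each point is 1 of the 3849 members, with its −log10 q-value in control 1 on the x axis and in control 2 on the y axis, both on log scales. The 12 best-ranked members (dark points) are at 20.7 or more in control 1 and at 26.1 or more in control 2, while the medians over the members are 5.74 and 6.05.

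The BPA libraries could list peaks of this strength to different degrees. At its lowest background BPA 1 listed no peak with a pile-up under 6 fragments, a ratio of pile-up to background of 5.19, whereas BPA 2 listed peaks down to a ratio of 2.90 and the controls down to 3.16 and 3.33. Of the members, 963 (25.0%) reached the ratio of BPA 1 in both controls, and 3717 (96.6%) reached that of BPA 2. These limits hold at the lowest background of each library. Where its background was higher BPA 1 listed weaker peaks, down to a fold of 1.66, so the number of members whose loss could not be seen in BPA 1 is not given by this ratio. The 963 members above the ratio had a median distance of 73595 bp from a start site and a median G+C content of 41.9%, beside 56901 bp and 42.9% for the members below it. Peaks of the BPA libraries were often near a member without touching it. The nearest BPA peak was a median of 10057 bp away, within 1 kb for 238 members (6.18%) and within 10 kb for 1919 (49.9%).

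At the border of the selection, the closest member lay 501 bp from a start site, that of Gimd1, and the farthest control-only region that the start site distance removed lay 472 bp from that of Gm17266. Only 16 members were within 1 kb of a start site. Members were farther from genes than intergenic regions open in all 4 libraries or BPA-only, and nearer than those of a single control. Their median distance to the nearest curated start site was 59939 bp, beside 31686 bp for intergenic regions with a peak in all 4 libraries, 34983 bp for intergenic BPA-only regions and 33246 bp for control-only regions within transcripts. A total of 1431 members (37.2%) were over 100 kb away, beside 18.4%, 20.8% and 20.1% in the other 3 classes. Beyond 500 kb there were 216 members (5.61%), beside 0.994%, 0.829% and 0.878%. When predicted transcripts were added to the annotation the median distance was 32576 bp for members, 18842 bp for regions with a peak in all 4 libraries and 19010 bp for BPA-only regions. The most distant member lay 2005411 bp from any curated start site. The nearest start site lay downstream of 60.3% of members, which were thus upstream of their gene, beside 61.4% and 60.6% in the other intergenic classes.

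**Figure D2:**
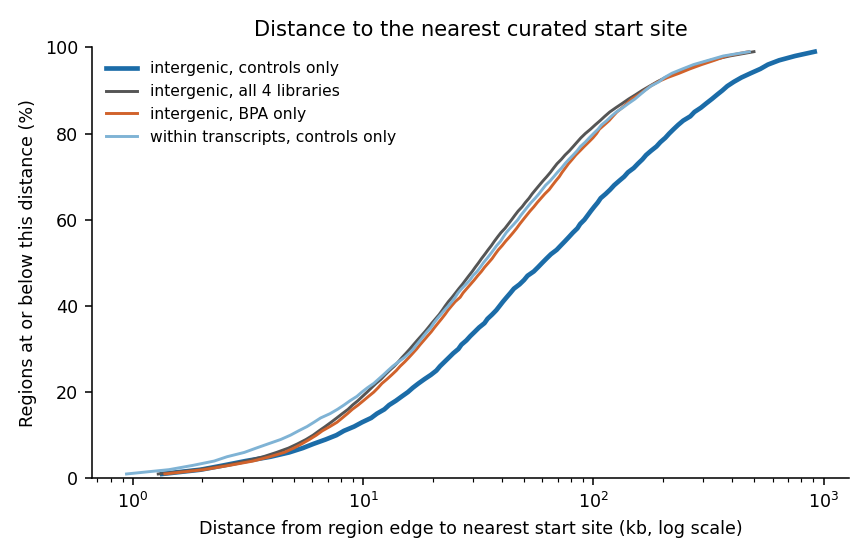
The curves give the share of regions (y axis, %) at or below a distance to the nearest curated start site (x axis, kb, log scale) for 4 classes of region, up to their 99th percentile. From the 5th percentile upwards the curve of the members (thick) lies to the right of the other 3, with a median of 59.9 kb beside 31.7, 35.0 and 33.2 kb. Below that percentile it lies to the left of the BPA-only curve.

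The longer distances moved together with a difference between whole libraries. Over all intergenic regions more than 500 kb from a start site, control 1 had a peak at 1823 and control 2 at 1582, while BPA 1 had one at 254 and BPA 2 at 427. Regions with a peak in a single library showed the same order, with a median distance of 102080 bp for control 1 alone and 90566 bp for control 2 alone, beside 33786 bp for BPA 1 alone and 38382 bp for BPA 2 alone. The members thus fell between the regions of single controls and those of the BPA libraries. Among all intergenic regions, the share that were members was 5.53% within 10 kb of a start site, 7.93% between 100 and 500 kb and 6.89% beyond, while the share that were BPA-only went from 10.9% to 7.25% and 1.47%. The part of library quality in these differences was not tested.

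Base composition followed the same course. The summits used for sequence windows are those of control 1, except in BPA-only regions, where they are those of BPA 1. The 301 bases around the summit of a member held a median of 42.9% G+C (quartiles 38.9% and 46.8%), beside 48.5% in regions with a peak in all 4 libraries, 48.8% in BPA-only regions and 43.5% in control-only regions within transcripts. Windows of the same length 2 kb either side of the summits held 41.7%, 44.9%, 45.2% and 42.4%, so the order of the classes was also present in the flanks. No CpG dinucleotide was present around the summit of 433 members (11.2%), beside 3.99% of regions with a peak in all 4 libraries and 4.43% of BPA-only regions. Repeat-masked bases took a median of 8.64% of the members' windows, beside 7.31% and 7.64%. When the intergenic regions were divided into 5 groups of equal size by the G+C content of the whole region, the share that were members went from 9.38% in the lowest group to 2.85% in the highest, and the share that were BPA-only from 1.66% to 15.5%. The libraries differed in the same direction. In the lowest group control 1 had a peak at 7218 regions and control 2 at 6220, while BPA 1 had one at 1169 and BPA 2 at 2795. In the highest group the counts were 5704, 6616, 7482 and 9297 in the same order. How far this difference between libraries sets the membership was not tested.

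**Figure D3:**
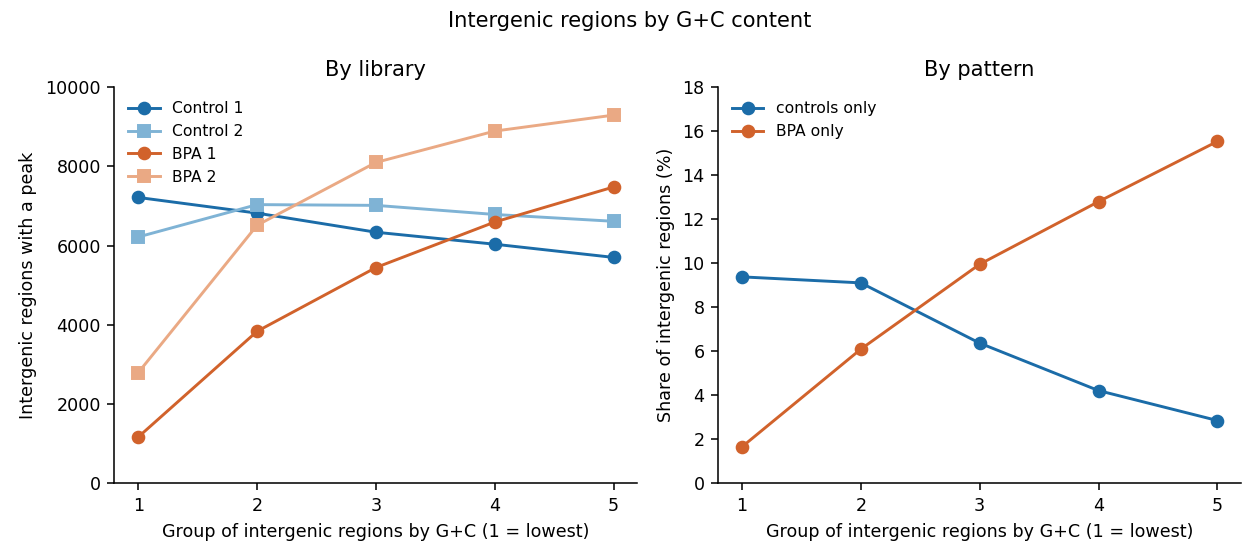
The left panel counts the intergenic regions with a peak in each of the 4 libraries, and the right panel gives the share of regions (%) that were control-only or BPA-only, both by group of G+C content (x axis, 5 groups of equal size, 1 is the lowest). In the lowest group the controls have 7218 and 6220 regions and the BPA libraries 1169 and 2795, and the control-only share falls from 9.38% to 2.85% across the groups.

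Motif letters were counted in the 301 bases around each summit and, as a local level, in windows of the same length 2 kb either side. The NFI site was present in 1151 members (29.9%), beside 14.7% of their shifted windows. It was present in 27.3% of regions with a peak in all 4 libraries and in 21.2% of BPA-only regions, with 14.7% and 14.6% in their shifted windows. The GATA site (AGATAAG), bound by a family of zinc finger proteins of blood, vessel and fat lineages, was in 340 members (8.83%) and in 4.46% of their shifted windows. In the other intergenic classes its shares were near their local level, with 4.43% beside 3.85% in regions with a peak in all 4 libraries and 3.58% beside 3.98% in BPA-only regions. Control-only regions within transcripts also held it in 8.69%, with a local level of 4.39%. The site of TEAD proteins (CATTCCA), partners of the Hippo pathway, was in 9.25% of members beside 5.21% locally, and in 7.83% and 6.97% of the other intergenic classes. The steroid receptor pattern was in 539 members (14.0%) beside 9.89% locally, and in 11.4% and 10.7% of the other classes.

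SP/KLF, ETS, EBF, E-box, nuclear receptor and SOX motifs were less common in members than in both other intergenic classes. The rest were more common in members than in both, or lay between them. The SP/KLF box (GGGCGGG) was in 1.53% of members beside 6.62% of regions with a peak in all 4 libraries and 4.70% of BPA-only regions, and the ETS site (CCGGAAG) was in 1.14% beside 2.69% and 2.85%. The site of EBF proteins (TCCCNNGGG), which include a factor of adipocyte formation, was in 3.20% of members with 2.60% locally, beside 6.83% and 8.18%. The E-box (CAGCTG) was in 15.7% beside 22.5% and 24.8%. The AP-1 site was in 618 members (16.1%), with 15.9% and 20.1% in the other classes, and 9.30%, 9.18% and 9.51% locally. The site of C/EBP proteins (TTGCNNCAA) was in 3.59% of members and 2.61% of their shifted windows, beside 3.08% and 2.50% in the other classes. The nuclear receptor core (AGGTCA) was in 18.6% beside 16.4% locally. The RUNX site was in 6.83% of members and of their shifted windows alike. The SOX site (ACAATGG) was in 2.99% and MEF2 in 5.35% of members, below the local 5.81% and 6.66%. In the other classes SOX was in 3.12% and 6.07%.

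The longer CTCF pattern was looked for after the sequences had been seen. It was present in 503 members (13.1%) and in 3.18% of their shifted windows, beside 14.5% and 4.59% in regions with a peak in all 4 libraries and 6.79% and 4.46% in BPA-only regions. Control-only regions within transcripts held it in 9.02%, with a local level of 3.59%. The short core, chosen earlier, was in 5.82% of members, 8.13% of regions with a peak in all 4 libraries and 4.70% of BPA-only regions. Among members over 100 kb from a start site the longer pattern was in 11.5%, and GATA in 9.22%, beside 8.41% and 4.87% of regions with a peak in all 4 libraries at such distances. Nearer than that the order of the longer pattern was reversed, with 14.0% of members beside 15.9%. GATA was there in 8.60% beside 4.33%. Of the 15 motifs chosen earlier, 7 had a larger share in members than in both other intergenic classes within 301 bases. They were NFI, steroid receptor, GATA, TEAD, MEF2, C/EBP and RUNX. Of these, MEF2 was below its local level in members and RUNX was level with it. Control-only regions within transcripts had larger shares than members for NFI (31.3%), the steroid receptor pattern (14.4%) and MEF2 (5.73%). When the whole region was searched, GATA alone had a larger share in members than in both other intergenic classes. Members were narrower, with a median of 614 bp, than regions with a peak in all 4 libraries (1081 bp) and BPA-only regions (728 bp), so only windows of equal length are set side by side here. A match to these letters is a description and not evidence of binding.

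**Figure D4:**
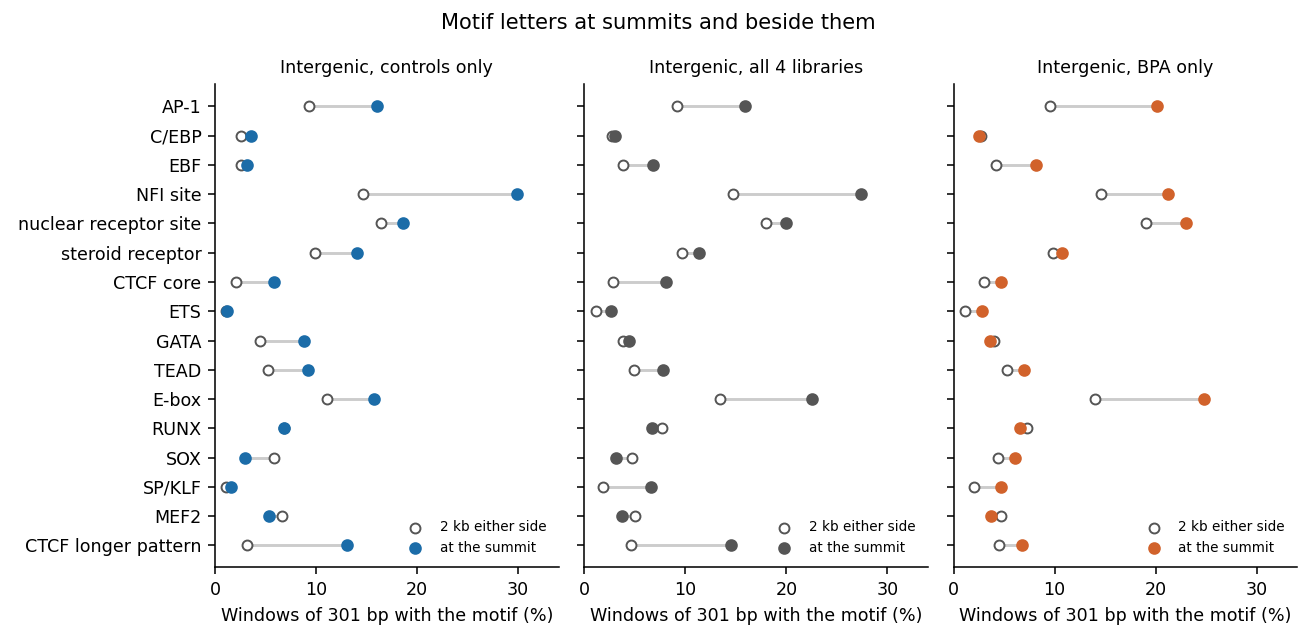
Filled points give the share (%) of 301 bp windows at the summit with each motif, and open points the share in windows 2 kb either side, for members, intergenic regions with a peak in all 4 libraries and intergenic BPA-only regions. The NFI site, the longer CTCF pattern, AP-1, GATA and TEAD lie to the right of their open points in the members, at 29.9%, 13.1%, 16.1%, 8.83% and 9.25%.

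The best-ranked member lay at chr2:78026332-78027138, 24039 bp upstream of the long non-coding RNA gene 4930440I19Rik. Its −log10 q-value was 55.5 in control 1 and 92.9 in control 2, its fold over local background was 7.91 and 7.03, and its pile-up 106 and 197 fragments. Relative to the lowest background of each library, the local background here was 4.39 times that level in control 1, while control 2 was at 10.1 times. Both controls were thus far above their usual background here, and control 2 more so. The median background over all members was 1.30 and 1.26 times the lowest. This region belonged to a cluster beside Cwc22, a splicing factor gene, which is described below.

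Cyp2b10, a cytochrome P450 of xenobiotic and steroid metabolism, was the nearest gene of the member that ranked 3 by q-value, at chr7:25884027-25884604, 13054 bp upstream of its start site. Its fold over background was 11.0 in control 1 and 11.1 in control 2, and its −log10 q-values were 30.5 and 32.9. The folds were the highest of the 12 best-ranked members in both controls, at a background of 1.03 and 1.16 times the lowest. Another member upstream of Cyp2b10, at chr7:25863681-25864674, had a fold of 6.04 and 8.18. The nearest BPA peak was 17151 bp from the first of these and 8150 bp from the other. In all, 3 of the 4 intergenic regions nearest to Cyp2b10 were members. They formed 1 cluster of 20.9 kb, with folds from 5.29 upwards in control 2.

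The member that ranked 2 lay 494682 bp upstream of the non-coding gene D430036J16Rik, at chr9:81136047-81137248, with a fold of 8.66 in control 1 and 9.77 in control 2. The nearest BPA peak was 411926 bp away from it. A region 5283 bp upstream of Igf2bp2, which encodes an RNA-binding protein, at chr16:22168582-22169299, had a fold of 8.17 and 8.18. The member nearest to Emb, the gene of the membrane glycoprotein embigin, at chr13:117315492-117316647, lay 94919 bp downstream of the start site with a fold of 7.30 and 7.26. The 2 controls had nearly equal folds at Igf2bp2 and Emb, and control 2 the higher one at D430036J16Rik. Those nearest to Gask1b, a Golgi-associated kinase gene, and Gm14062 also had a higher fold in control 2 than in control 1, at 10.0 beside 8.69 and 10.3 beside 7.32.

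The other 5 of the 12 best-ranked members were nearest to Gm12128, Gm1653, Mir6341, Sorcs1 (a receptor of the sortilin family) and 1700016G22Rik. Their folds ran from 7.07 to 7.72 in control 1 and from 7.59 to 10.3 in control 2. Mir6341 had its member only 626 bp from the start site, while that of Sorcs1 lay 283140 bp away. Over the 12 best-ranked members the nearest BPA peak was between 3384 bp (Emb) and 411926 bp (D430036J16Rik) away. It was under 10 kb away at Emb, 4930440I19Rik (4151 bp), Igf2bp2 (4660 bp), 1700016G22Rik (5587 bp) and Gm14062 (7589 bp), and over 100 kb away at D430036J16Rik, Sorcs1 (282631 bp), Gm12128 (126876 bp) and Gask1b (122284 bp). Of these 12 regions, 7 were also among the 12 best when the members were ranked by fold in place of q-value.

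The 3849 members had 2544 different nearest genes. Of these genes 1801 had 1 member, 299 had 3 or more and 70 had 5 or more. Isl1, a LIM-homeodomain transcription factor of heart, pancreas and nerve development, was nearest to the most. It had 12 members among 45 intergenic regions (26.7%), from 12.5 to 551 kb away, and none of the 45 was BPA-only or shared by the 4 libraries. Across these 45 regions each control had a peak at 30, while BPA 1 had one at 3 and BPA 2 at 0. The folds of the 12 members ran from 3.02 to 6.22 in control 1 and from 3.24 to 8.58 in control 2, and 3 of them reached the ratio of pile-up to background that BPA 1 listed. The best-ranked, at chr13:116002386-116002901, had a fold of 5.26 and 8.58.

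Efna5, an ephrin ligand of cell contacts, had 10 members of 67 regions, and 4 of the 67 had a peak in all 4 libraries. The non-coding genes 1700116B05Rik and Gm2516 had 9 members each, of 29 and 51 regions. Trps1, a repressor with a GATA-type zinc finger, had 8 of 47 regions, and 6 others of the 47 were open in each of the 4 libraries. Vgll3, a cofactor of TEAD proteins, had 7 of 23. Got2, the mitochondrial aspartate aminotransferase, had 7 of 33, and among those regions control 1 had a peak at 18 and control 2 at 27, while BPA 1 had one at 0 and BPA 2 at 6. Lrrtm1, a synaptic membrane protein gene, had 7 of 35, all between 375 and 1684 kb away. The non-coding genes 4930524C18Rik and Gm17215 had 7 of 40 and 7 of 41. In all 10 genes had 7 members, and the 5 named are those with the largest share of members among their regions, an order that favours genes with few BPA-only regions. The other 5 were Basp1, Nr2f2, Map3k7, Pik3r1 and Flrt2, with 0, 2, 4, 5 and 1 BPA-only regions. Among the named 10 genes 1700116B05Rik and Gm2516 had 1 BPA-only region each and the others 0. Such genes stand beside long stretches without other start sites, up to 1833 kb from the gene for the members of Efna5.

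Local clusters were defined as 3 or more members, each within 50 kb of the next. There were 119 of them with 402 members (10.4%), and over all members the median gap to the next was 103321 bp. Where a −log10 q-value of at least 5 was required in every list the share was 5.50%, where control peaks had to share 50% of both lengths it was 5.66%, and with gaps of 20 or 100 kb it was 2.91% or 22.1%. It was 34.7% without control 1, 36.0% without control 2 and 24.0% without BPA 2, when more regions qualified. In classes with more regions the share in such clusters was 52.9% (regions with a peak in all 4 libraries) and 33.7% (BPA-only), and it was 12.6% in the control-only regions within transcripts, whose number was close to that of the members. Of the clusters 87 held 3 members, 23 held 4, 6 held 5, 2 held 6 and 1 held 7. In 41 clusters no BPA peak lay between the first and the last member, in 50 there was a region shared by the 4 libraries, and in 16 a BPA-only region.

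The cluster with the most members spanned chr16:55350298-55524125, 174 kb next to Mir5118 and Zpld1, with 7 members among 20 regions. Folds ran from 3.13 to 6.01 in control 1 and from 2.97 to 5.41 in control 2. The span held 17 peaks of control 1 and 16 of control 2 beside 4 of BPA 1 and 5 of BPA 2, and 3 regions with a peak in all 4 libraries, all of them beyond the first 5 members.

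Pik3r1, the regulatory subunit of phosphoinositide 3-kinase in insulin signalling, had 6 members in 145 kb at chr13:101920369-102065775, between 152 and 297 kb from its start site. Folds ran from 2.60 to 5.49 in control 1 and from 3.06 to 6.06 in control 2. The span held 12, 13, 3 and 9 peaks of control 1, control 2, BPA 1 and BPA 2. The BPA 1 peaks there were strong, with a median fold of 8.63, at sites shared with the controls.

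Efna5 had a cluster of 5 members at chr17:62285778-62415546, with folds of 3.07 to 5.71 in control 1 and 2.92 to 7.30 in control 2. It held 7, 9, 2 and 1 peaks of control 1, control 2, BPA 1 and BPA 2. Nr2f2, an orphan nuclear receptor gene, had 5 members at chr7:70712054-70798006, with folds of 2.72 to 6.15 and 4.04 to 4.81, and the span held 10, 8, 2 and 3 peaks. In neither cluster was there a BPA-only region. These were the 2 with the best-ranked members of 6 clusters of 5, and of the other four those at Gm32865, Adamts9 and Gm11264 held 1, 2 and 1 BPA-only regions and that at Mrps30 held 0.

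The cluster at Cwc22 and 4930440I19Rik differed from these in its background. It spanned chr2:77951223-78027138 with 6 members. The median background of its control peaks was 3.53 times the lowest in control 1 and 7.30 times in control 2, beside 1.02 in BPA 1 and 1.19 in BPA 2. The control medians rest on 10 and 15 peaks, but those of BPA 1 and BPA 2 on 1 and 2, and within 120 kb of the centre but outside the span single peaks of BPA 1 reached 3.22 and of BPA 2 4.17 times the lowest. In the other 4 named clusters these medians were between 1.00 and 1.81 in every library. The local background of the control peaks was thus raised along this stretch. The member 4867 bp from Cwc22 had a pile-up of 32 fragments in control 1 and 172 in control 2, and the member at chr2:77979103-77979881 had 27 and 134. The part of this raised background in the membership of the 6 regions was not tested, and without them 3843 members remained.

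**Figure D5:**
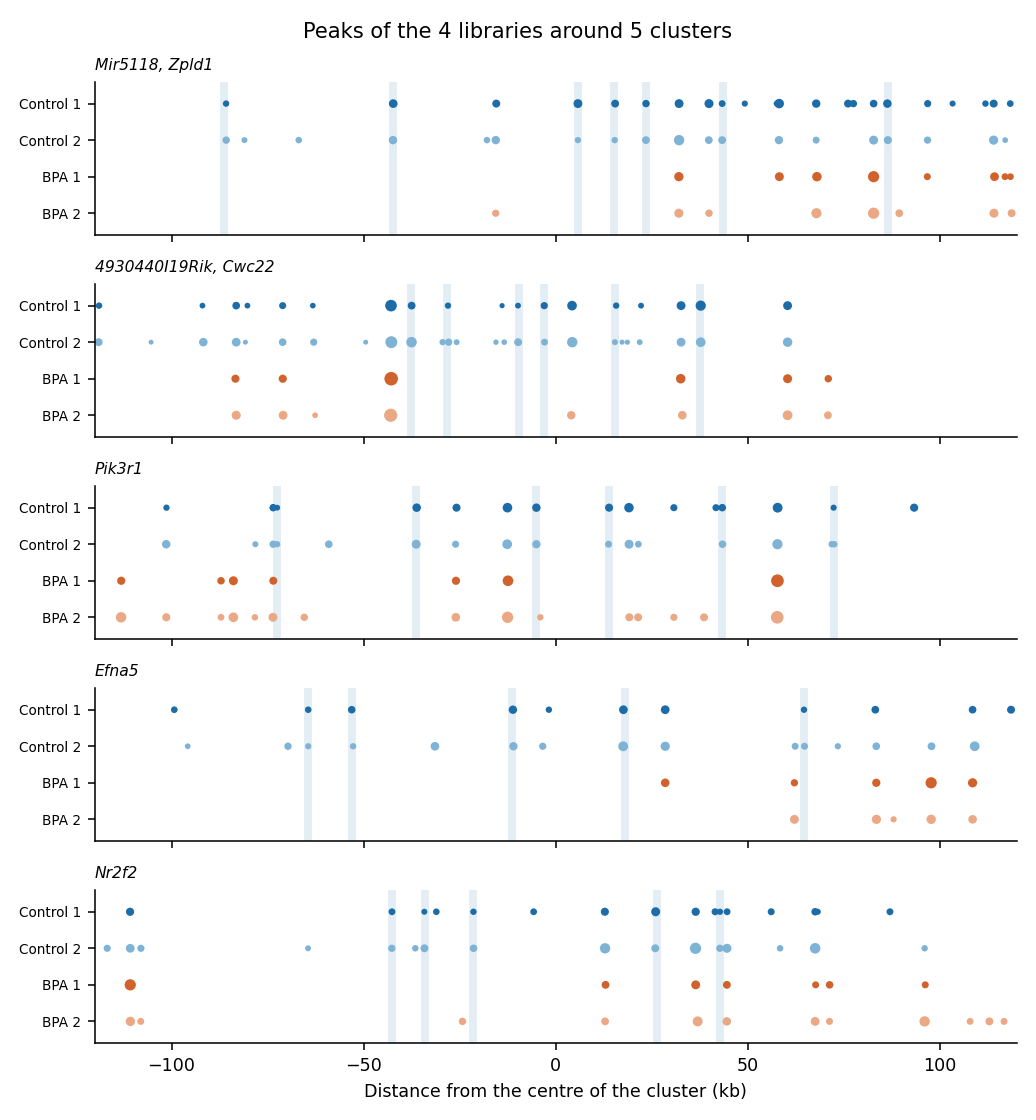
Points are peaks of the 4 libraries by distance from the centre of each of the 5 clusters (x axis, kb), with the point area in proportion to the fold over background, and shaded bars mark the members. The spans hold 7 to 17 peaks per control and 1 to 9 per BPA library, and some shared peaks stand between members.

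The tissue was checked at the promoters of 15 adipocyte genes. Of these, 15 carried a peak in control 1 and 14 in each other library. Members near the listed genes were few. Across 92 genes of 12 lists there were 489 nearest intergenic regions, of which 34 (6.95%) were members, close to the 6.39% of all intergenic regions, and the members lay near 24 of the genes. The adipocyte list had 3 members of 69 regions. Lep, which encodes leptin, had the best of them at chr6:29086201-29086680, 25980 bp downstream of the start site, with a fold of 4.93 in control 1 and 5.46 in control 2. A BPA peak stood 1115 bp from it. The member upstream of Cidec, a lipid droplet protein gene, had folds of 2.76 and 3.72, with a BPA peak 1609 bp away.

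The thermogenic list had 6 members of 51 regions (11.8%), near Ucp1, Dio2 and Ppargc1a, beside 4 BPA-only regions. Of the 6 members 4 were nearest to Dio2 alone, which had 18 intergenic regions, so the share of this list rests mostly on 1 gene. At Ucp1, the uncoupling protein of brown and beige fat, a member at chr8:83309834-83310455 lay 19486 bp from the start site, with a fold of 5.22 in control 1 and 8.60 in control 2. The nearest BPA peak was 19240 bp away from it. At Dio2, which activates thyroid hormone, the best-ranked of the 4 members had folds of 4.14 and 6.40 and its nearest BPA peak 42038 bp away. Both regions were higher in control 2 than in control 1. The promoters of the 6 thermogenic genes carried peaks at 4, 6, 4 and 6 genes in control 1, control 2, BPA 1 and BPA 2.

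The endothelial list had 4 members of 80 regions (5.00%) and 18 BPA-only regions (22.5%). Kdr, a receptor of vascular endothelial growth factor, had a member at chr5:76005909-76006735 with folds of 6.79 and 5.48, and Cdh5, the cadherin of vessel walls, one with folds of 4.75 and 4.90. At Kdr the nearest BPA peak stood 1366 bp away, and at Cdh5 11179 bp away. Endothelial promoters carried peaks at 4 of 10 genes in control 1, 2 in control 2, and 10 in each BPA library. The macrophage list had 0 members of 12 regions and 3 BPA-only regions, and its promoters were listed at 2, 3, 5 and 5 of 6 genes. Promoter regions in general also had more of the BPA-only pattern. Among all merged regions within 500 bp of a start site 671 were BPA-only and 121 control-only, while 12043 had a peak in all 4 libraries. The part of the cell types in the tissue pieces in these counts, and that of the difference between whole libraries, was not tested. The pericyte and smooth muscle list had 0 members of 8 regions, the epithelial list 0 of 5 and the nerve list 0 of 2.

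The progenitor and fibroblast list had 7 members of 110 regions (6.36%). They lay near Col3a1, a fibrillar collagen gene with folds of 4.32 and 4.19, Dpp4, a progenitor surface peptidase gene with folds of 2.79 and 3.02, and Osr1, Tcf21 and Twist2. The mesothelial list had 1 member of 14, near Lrrn4, with folds of 2.94 and 3.52, and mesothelial promoters were listed at 4, 2, 2 and 1 of 5 genes. The lymphocyte list had 1 of 19, near Gata3, with folds of 5.21 and 3.30. The steroid and xenobiotic list had 7 of 71 (9.86%), near Cyp2b10, Cyp1b1, Ahr and Nr3c1, beside 9 BPA-only regions. Of these 7 members 3 were those of the 1 cluster at Cyp2b10. The homeobox and T-box list, whose genes pattern fat depots, had 5 of 48 (10.4%), near Irx3, Shox2, Tbx5 and Tbx15, beside 2 BPA-only regions. Irx3 had a member 219788 bp upstream with folds of 6.75 and 4.80, and Shox2 one 327931 bp downstream with folds of 4.43 and 4.34. Nearest BPA peaks stood 3601 bp from the member at Col3a1, 2076 bp at Dpp4 and 1854 bp at Lrrn4. At Gata3, Irx3 and Shox2 they stood 11928, 10617 and 3661 bp away.

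Members were spread over every autosome. Their share of the intergenic regions was highest on chromosome 3, with 336 members (8.04%), and on chromosome 16 (7.89%), and lowest on chromosome 11 (4.43%). The BPA-only share ran the other way on these chromosomes, with 6.60%, 6.79% and 12.6%. The nearest gene was protein-coding for 2754 members (71.6%) and a long non-coding RNA for 904 (23.5%), beside 74.4% and 20.9% of the regions with a peak in all 4 libraries.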

How the data were processed

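Visceral adipose tissue was profiled by ATAC-seq in 2 control and 2 BPA libraries. The authors trimmed reads with Trim Galore, mapped them to mm10 with Bowtie2 2.3.5.1, removed duplicates with SAMtools and called peaks for each library with MACS2 2.2.7.1, without pooling. The other peak calling options are not given in the sources used here. The deposited lists hold a score, a fold (ratio of pile-up to local background, each with 1 added), a −log10 p-value, a −log10 q-value and the summit offset of each peak, and the lowest −log10 q-values deposited correspond to a q-value of 0.05. The lists hold no read totals, so depth is known only through the lowest background per library, 2.85 and 2.70 fragments in the controls and 1.16 and 3.80 in BPA 1 and BPA 2. The deposited lists held 82665, 88911, 72375 and 98060 peaks.

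Regions were merged where peaks overlapped by 1 bp or more. Distances run from the region edge to the nearest start site of 43783 curated RefSeq transcripts on chromosomes 1 to 19 of GRCm38, the assembly of mm10, and all sequences come from that assembly. For every peak, its pile-up and local background were solved from the deposited fold and p-value, to a relative error of 1e-04, and gave whole fragments for 100% of peaks in every library. Tested on simulated data, the solution was right for 99.94% of 19902 peaks, and regions, patterns, distances and clusters were right in 4 of 4 checks. The rank of a member is the worse of its ranks by −log10 q-value in the 2 control lists, as a share of each list. Named are the 12 best-ranked members, the 5 clusters with most members (ties by the best-ranked member), the 10 genes nearest to most members (ties by the share of members among the regions of the gene), and for each gene list the members in the best 25% of both lists or the 2 best-ranked. Member names are those of the nearest start site. The members, gene lists, motifs and rules were chosen with earlier results of these data known. Python 3.11.15, numpy 2.4.6, pandas 2.3.3 and scipy 1.17.1 were used.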

Additional observations from a re-analysis of the deposited data

How the results depend on the processing

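No paired analysis was possible because no test between groups was run and the replicate numbers of the labels do not pair control with BPA animals. Of 52 values under alternatives, 23 kept close to the reported value and 29 moved. For counts, close meant a fixed limit on the ratio to the reported count. For the other values it meant 55822 to 64179 bp, 42.5% to 42.9% G+C and 9.52% to 11.5% in clusters. These are 95% intervals that treat the members as independent, which they are not, so they serve only as a rule for sorting the values. Leaving out 1 library gave 4671 to 13154 members, median distances of 48495 to 86915 bp, a median G+C of 40.9% to 43.2% and 14.8% to 36.0% in clusters. The members numbered 13098 without control 1, 13154 without control 2, 4671 without BPA 1 and 6950 without BPA 2, since 1 condition fewer was then required. A −log10 q-value of at least 5 in every library gave 2053 members, a median distance of 55018 bp, 43.2% G+C and 5.50% in clusters. The best 40000 peaks of each library gave 2862 members, with 45964 bp, 43.9% and 8.39%. Control peaks that shared 50% of both lengths gave 2419 members with 43.2% and 5.66%. With predicted transcripts the median distance was 32576 bp, and the number of members 3287. A gap of 20 kb left 2.91% of members in clusters and a gap of 100 kb 22.1%. Of the 12 best-ranked members 7 stayed when ranked by fold. Compared with the other 2 intergenic classes, 1 of 15 motifs had its highest share in members when the whole region was searched, against 7 in equal windows. The cause of these moves was otherwise not tested. At its lowest background BPA 1 listed peaks from a ratio of pile-up to background of 5.19, which 963 members reached in both controls, so at that background its list cannot show weaker peaks.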

Other observations

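The X chromosome was left out of the selection. By the same steps it held 1206 intergenic regions, of which 102 (8.46%) had a peak in both controls and in neither BPA library, and 88 (7.30%) were BPA-only. The labels do not give the sex of the animals.

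The classes of intergenic region that lacked a peak in only 1 BPA library differed in size. Peaks in both controls and in BPA 2, but not in BPA 1, were found at 2976 intergenic regions, with a median distance of 39919 bp to a start site and a median G+C over the whole region of 43.4%. Peaks in both controls and in BPA 1, but not in BPA 2, were found at 816, with 44405 bp and 45.9%. Over whole regions the members had 42.2%.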
